A study of Mus musculus with 4 samples.

Results

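The genes described here are 8 unconventional myosins, Myo5a, Myo5b, Myo5c, Myo6, Myo7a, Myo1d, Myo1e and Myo10, together with Mlph (melanophilin), the linker that holds Myo5a on the melanosome. They were followed in 4 mouse melanocyte lines through every Affymetrix probe set, the group of short probes that reads one transcript, that was listed with a single one of these genes. This gave 24 of 45037 probe sets on the array, and 9 of the 18193 genes that had a probe set of their own. All lines were derived from the skin of C57BL/6J pups aged 3 days, were immortalized, and were grown in Ham's F12 medium with serum and 200 nM of TPA, a phorbol ester used to keep melanocytes in culture. The bcat* melanocytes (line 10d) came from mice with a transgene for a stable, transcriptionally active β-catenin in the melanocyte lineage, and the WT melanocytes (line 9v) from mice without it. Lines 13d and 14d are bcat* and WT in the sample labels but WT and bcat* in the study's methods, and are therefore given by line name. By their labels, lines 10d and 9v were male and lines 13d and 14d were female, while the methods name male mice only. The study compared the transcriptomes of bcat* and WT melanocytes to look for changes in genes of melanosome trafficking, since melanosomes lay differently in the bcat* cells.

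Myosins are motors that pull against actin filaments with energy from ATP, and the unconventional ones carry or tether membranes and filament ends instead of building the contractile filaments of muscle. In melanocytes, Myo5a walks along actin toward the cell border and holds melanosomes there, attached through Mlph to the small GTPase Rab27a on the melanosome membrane. Mice that lack any member of this trio have diluted coat colours because pigment stays near the nucleus. Myo6 moves the opposite way on actin, and takes part in endocytosis and in the pinching off of membrane tubules from maturing melanosomes.

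Each line had 1 array, so that no value carries an error between arrays, and a fold between lines compares those cultures. The deposited GCRMA intensities were on a linear scale, ran from 2 upwards, and were at 32 or more, the level used here to call a probe set detected, for 35.8% to 36.1% of probe sets per array. RNA integrity numbers were between 9.7 and 9.9. Of 12 melanocyte markers, 11 were detected in every line, including Tyr, Dct, Pmel and Mitf, and Ednrb was under 32 in all lines. Few genes on the lists of other cell types were detected: 2 of 9 keratinocyte, at most 1 of 10 fibroblast, 1 to 3 of 6 Schwann and glial, at most 1 of 6 endothelial, 1 of 6 leukocyte and 2 of 9 skeletal muscle genes per line. The defining markers Krt5, Krt14, Pdgfra, Pecam1 and Ptprc were all under 32. Xist read 4 in line 10d, 2124 in line 13d, 1768 in line 14d and 4 in line 9v. The 3 probe sets of Ctnnb1, the β-catenin gene, had ratios of line 10d to line 9v between 0.974 and 1.05. They overlapped between bcat* and WT lines with the genotypes of the labels, and with those of the methods except for 1430533_a_at, which read 7210 and 7338 in bcat* lines (10d and 14d) and 7978 and 7405 in WT lines (13d and 9v). Whether they read the transgene was not tested.

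Of the 24 probe sets, 15 reached an intensity of 32 in at least 1 line, and these covered 7 of the 9 genes. Across the array 17423 probe sets and 9428 genes did so. In bulk RNA of this kind, fewer cells that express a gene and less RNA per cell cannot be told apart. Between bcat* (10d) and WT (9v) melanocytes, 14 of the 15 were higher in line 10d by any amount, against 51.1% of all probe sets detected in either line. At least 2-fold higher were 5 of the 15, against 8.07% of 16789 probe sets, and 1 was at least 2-fold lower, against 9.02%. By the brightest probe set of each gene, 2 of 7 genes (Myo6 and Myo7a) were at least 2-fold higher, against 7.85% of 9131 genes, and 1 (Myo1d) was at least 2-fold lower, against 10.0%. The median log2 difference between line 10d and line 9v was 0.61 over the 15 probe sets and 0.02 over all detected probe sets. These probe sets are not independent, since several read the same gene. Of the 14 higher probe sets, Myo10 1450651_at reached 32 in line 10d (45) and not in line 9v (16). It entered this pair only through the line where it was high.

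**Figure D1:**
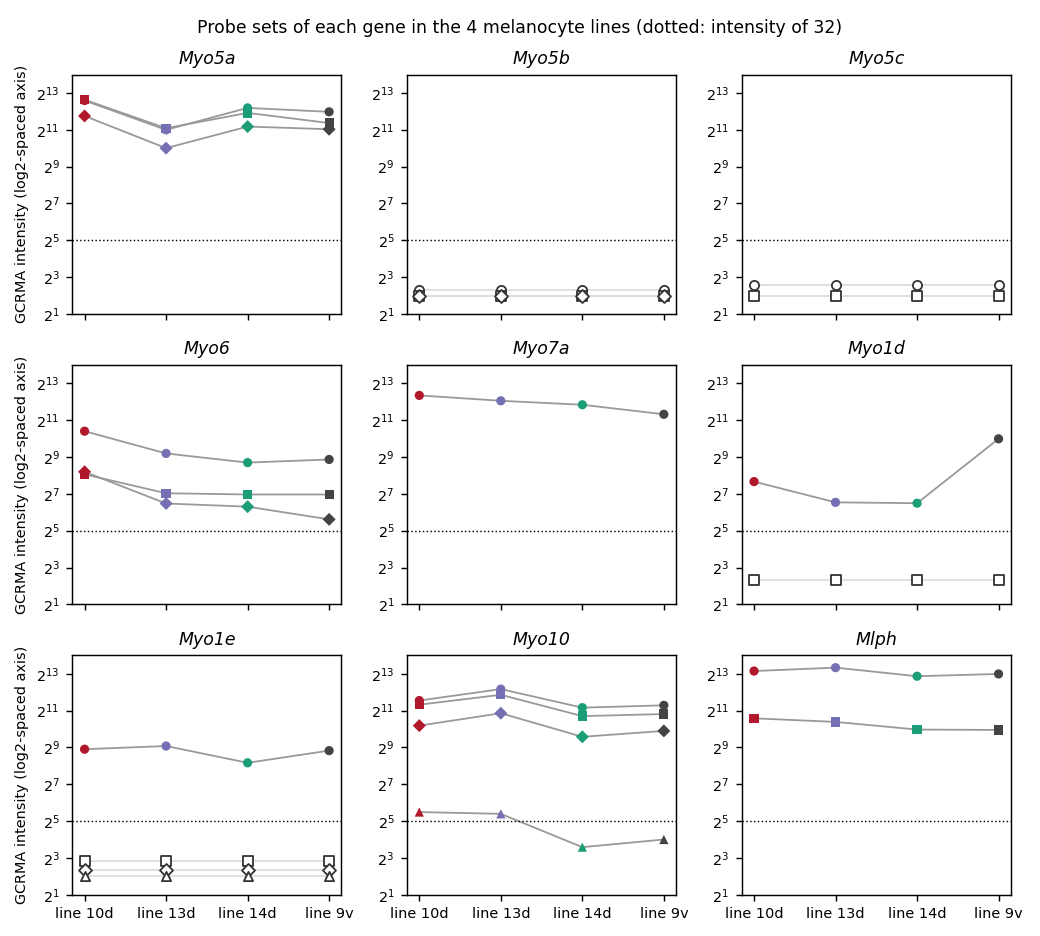
GCRMA intensity on a log2-spaced axis (y) in lines 10d, 13d, 14d and 9v (x) for the 24 probe sets, 1 panel per gene and 1 marker shape per probe set, with 1 array per point and grey lines joining the points of a probe set. Filled symbols are probe sets at 32 or more in at least 1 line; Myo5b and Myo5c stay under the dotted line at 32 in every line, Myo6 is highest in line 10d and Myo1d is highest in line 9v.

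Myo5a, on chromosome 9, was the motor of the melanosome itself, and its 3 probe sets gave the same order of lines. Probe set 1419754_at read 6157 in line 10d, 2042 in line 13d, 4668 in line 14d and 4026 in line 9v. Probe set 1436051_at read 6345 in line 10d, 2174 in line 13d, 3866 in line 14d and 2637 in line 9v. In each of them line 10d was highest, line 14d came next, line 9v followed and line 13d was lowest. Probe set 1431320_a_at, whose suffix marks probes shared by several transcripts of a gene, read 3446 in line 10d, 1026 in line 13d, 2311 in line 14d and 2090 in line 9v, in the same order. The highest line stood 2.92-fold to 3.36-fold above the lowest. The ratio of line 10d to line 9v was 1.53, 2.41 and 1.65 by these probe sets, so that only 1436051_at passed 2-fold. Line 13d was below line 9v in all of them, at ratios of 0.507, 0.824 and 0.491, while line 14d was above it at 1.16, 1.47 and 1.11. The larger contrast for Myo5a was thus between lines 10d and 13d, which carry the same genotype in the labels and different genotypes in the methods.

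The window around the start of Myo5a (RefSeq, GRCm38.p6, chr9:75070956-75071255, plus strand, 250 bases before and 50 bases after the start) is printed so that its letters can be set against those of Mlph, its linker, and of Myo6. Capitals mark GGGCGG, a GC box, found 40 bases before the start.
Myo5a: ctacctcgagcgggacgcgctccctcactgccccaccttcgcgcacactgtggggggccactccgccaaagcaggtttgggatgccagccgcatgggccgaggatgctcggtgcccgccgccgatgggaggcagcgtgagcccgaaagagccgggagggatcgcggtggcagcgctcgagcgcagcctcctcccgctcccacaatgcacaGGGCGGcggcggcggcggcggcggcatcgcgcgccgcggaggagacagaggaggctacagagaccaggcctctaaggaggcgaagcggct
GGGCGG, searched on both strands, was in 35.7% of the 32851 windows of that table. The window was 72.0% G or C with 36 CpG dinucleotides, against medians of 52.7% and 7 over all windows. Neither CTTTGAT nor CTTTGAA, forms of the core to which Tcf/Lef factors bind, was present on either strand. They were in 3.73% and 5.14% of all windows.

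Mlph, the adaptor that binds Rab27a with one end and Myo5a with the other, was bright and differed little between lines. Probe set 1449896_at read 9078 in line 10d, 10319 in line 13d, 7472 in line 14d and 8138 in line 9v. Probe set 1425586_a_at read 1532 in line 10d, 1338 in line 13d, 1003 in line 14d and 989 in line 9v. Lines 10d and 13d were above lines 14d and 9v by both probe sets, and the highest line was 1.38-fold and 1.55-fold above the lowest. The ratios of line 10d to line 9v were 1.12 and 1.55, both under 2-fold. Mlph did not share the order of lines seen for its motor: line 13d, the lowest for all Myo5a probe sets, was the highest for the brighter Mlph probe set.

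Mlph lies on chromosome 1, and its window (RefSeq, GRCm38.p6, chr1:90914850-90915149, plus strand) is shown because it was the only one of the 9 windows read for these genes that held CACGTG, the E-box form to which the melanocyte factor Mitf is known to bind. Capitals mark CACGTG, 48 bases before the start, and GGGCGG, 67 bases before it.
Mlph: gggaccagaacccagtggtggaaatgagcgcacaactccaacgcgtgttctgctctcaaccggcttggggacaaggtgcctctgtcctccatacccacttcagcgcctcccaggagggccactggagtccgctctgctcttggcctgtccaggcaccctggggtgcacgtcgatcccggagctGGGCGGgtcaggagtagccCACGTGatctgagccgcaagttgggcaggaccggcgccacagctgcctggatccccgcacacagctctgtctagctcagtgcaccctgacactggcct
CACGTG was in 7.15% of all windows. A match of letters is a description and not a measured binding site. Mitf itself, by its brightest probe set, read 25382 in line 10d, 25220 in line 13d, 23118 in line 14d and 29002 in line 9v, with line 9v highest.

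Myo6 had its highest value in line 10d by every probe set. Its brightest probe set, 1433942_at, read 1354 in line 10d, 586 in line 13d, 415 in line 14d and 467 in line 9v. Probe set 1421120_at read 267 in line 10d, 131 in line 13d, 125 in line 14d and 125 in line 9v. Probe set 1435559_at read 294 in line 10d, 89 in line 13d, 79 in line 14d and 49 in line 9v. Line 10d was highest by all of them, and lines 13d, 14d and 9v lay close together except for 1435559_at, the probe set with the lowest value in line 9v. The ratio of line 10d to line 9v was 2.90, 2.14 and 6.0. Line 10d was also 2.31-fold, 2.04-fold and 3.30-fold above line 13d, the next line. These 3 probe sets were the only ones of the 15 at least 2-fold higher in line 10d than in each other line, against 2.36% of detected probe sets. Relative to line 9v, line 13d had ratios of 1.25, 1.05 and 1.82 and line 14d of 0.889, 1.0 and 1.61, all under 2-fold. The higher Myo6 level of line 10d was therefore not matched at 2-fold in either of the lines 13d and 14d, of which each is called bcat* by one source.

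The Myo6 window (RefSeq, GRCm38.p6, chr9:80164784-80165083, plus strand) is printed for its repeated GC boxes. Capitals mark 7 matches of GGGCGG, all on the reverse strand and so read here as CCGCCC, between 170 and 39 bases before the start, with 1 pair overlapping, and CCAAT, the CCAAT box, 110 bases before the start.
Myo6: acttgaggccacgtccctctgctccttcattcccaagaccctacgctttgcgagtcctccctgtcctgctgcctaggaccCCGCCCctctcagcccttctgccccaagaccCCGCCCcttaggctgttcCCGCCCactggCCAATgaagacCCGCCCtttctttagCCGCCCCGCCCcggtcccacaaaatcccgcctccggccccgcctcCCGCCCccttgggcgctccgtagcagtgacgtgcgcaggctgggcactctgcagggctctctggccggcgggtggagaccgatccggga
A count of 7 or more GGGCGG was reached by 206 windows, or 0.627% of 32851, and CCAAT was in 37.4%. The window held neither CACGTG nor the Tcf/Lef forms, and was 68.3% G or C. Myo6 and Myo5a thus both start in windows rich in G and C. This was not particular to them, since Mlph (64.3%) and the undetected Myo5c (56.3%) also lay above the median of 52.7%. A Myo10 window, at 48.0%, lay below it.

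Myo7a carries melanosomes in the retinal pigment epithelium, where it is joined to Rab27a by Myrip, and its loss makes shaker-1 mice deaf. Its single probe set, 1421385_a_at, read 5207 in line 10d, 4250 in line 13d, 3660 in line 14d and 2559 in line 9v. All of the other lines were above line 9v, at ratios of 2.03 for line 10d, 1.66 for line 13d and 1.43 for line 14d. Line 10d was just past 2-fold, and only 1.23-fold above line 13d. The summed Schwann and glial markers had the same order, at 8649 in line 10d, 7696 in line 13d, 5301 in line 14d and 5026 in line 9v, of which nearly all was Cdh19, while Mbp was at 7 or 8. Their part in the Myo7a values was not tested. In the retinal complex, Myrip read 5 in line 10d, 5 in line 13d, 6 in line 14d and 5 in line 9v, under the detection level throughout, whereas Rab27a read 7819 in line 10d, 6262 in line 13d, 8096 in line 14d and 7831 in line 9v.

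RefSeq gives Myo7a 2 windows on chromosome 7, and the one printed (GRCm38.p6, chr7:98109199-98109498, minus strand, written along the gene) held CATGTG, another E-box form that Mitf is known to bind. Which start the probe set follows was not tested. Capitals mark CATGTG on the reverse strand, read here as CACATG, 139 and 110 bases before the start.
Myo7a: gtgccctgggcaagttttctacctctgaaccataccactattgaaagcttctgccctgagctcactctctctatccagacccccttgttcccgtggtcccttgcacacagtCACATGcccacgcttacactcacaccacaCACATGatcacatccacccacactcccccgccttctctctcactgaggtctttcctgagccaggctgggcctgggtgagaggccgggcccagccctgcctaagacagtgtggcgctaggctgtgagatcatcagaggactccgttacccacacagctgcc
CATGTG was in 14.2% of all windows. The other Myo7a window had no CATGTG and held GGGCGG on both strands, 11 and 94 bases before its start. None of the 9 windows read, which belonged to 7 of the 9 genes, held CTTTGAT or CTTTGAA. Myo1d had no window, and Myo5b was left out by a filter on chromosome before the search. Statements on these windows therefore do not cover Myo1d or Myo5b. The motifs were chosen with the expression values known.

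Myo10, a motor that travels to the tips of filopodia and carries integrins there, was highest in line 13d by its 3 bright probe sets. Probe set 1454731_at read 2992 in line 10d, 4599 in line 13d, 2289 in line 14d and 2498 in line 9v. Probe set 1450650_at read 2560 in line 10d, 3713 in line 13d, 1665 in line 14d and 1799 in line 9v. Probe set 1422544_at read 1163 in line 10d, 1856 in line 13d, 764 in line 14d and 953 in line 9v. By these, line 10d came next after line 13d, then line 9v, and line 14d was lowest, the same order as for Myo1e and the brighter Mlph probe set. The ratio of line 10d to line 9v was 1.20, 1.42 and 1.22, and that of line 13d to line 9v was 1.84, 2.06 and 1.95. A dim probe set, 1450651_at, read 45 in line 10d, 42 in line 13d, 12 in line 14d and 16 in line 9v, so that it was detected in lines 10d and 13d only. With line 9v counted at the detection level of 32, line 10d was at least 1.41-fold higher by it. Lines 13d and 14d differed by 2.01-fold to 2.43-fold by the 3 bright probe sets.

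The class I myosins are short, single-headed motors that link membranes to actin. Myo1e, which acts in endocytosis and is needed in the kidney filter, read 479 in line 10d, 540 in line 13d, 287 in line 14d and 454 in line 9v by probe set 1428509_at. Line 14d was lowest, 1.88-fold below line 13d, and lines 10d and 9v were almost equal, at a ratio of 1.06. The other 3 probe sets listed with Myo1e read 4 to 7 in every line.

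Myo1d, which in flies sets the left-right coiling of organs, was the only detected gene with a value in line 10d below that in line 9v. Its detected probe set, 1435463_s_at, read 203 in line 10d, 93 in line 13d, 90 in line 14d and 1016 in line 9v. Line 9v stood apart from all the others, 5.0-fold above line 10d, 10.9-fold above line 13d and 11.3-fold above line 14d. It was the only one of the 15 probe sets at least 2-fold higher in line 9v than in each other line, against 1.41% of detected probe sets. The second probe set, 1458550_at, read 5 in all lines. The suffix _s_at marks probes that can match transcripts of more than one gene, and the call rests on this probe set alone. Line 9v also had the highest summed fibroblast markers, with 151 in line 10d, 92 in lines 13d and 14d and 252 in line 9v, and the highest summed endothelial markers, with 105 in line 10d, 84 in line 13d, 44 in line 14d and 219 in line 9v. These sums rested on Col1a2 and Vwf, with Pdgfra at 8 and Pecam1 at 5 in every line, and their part in the Myo1d result was not tested. Since line 9v is WT in both sources and line 14d, WT in the labels, read 90, the high value belonged to 1 line and not to the WT lines as labelled, nor, with line 13d at 93, to those of the methods.

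**Figure D2:**
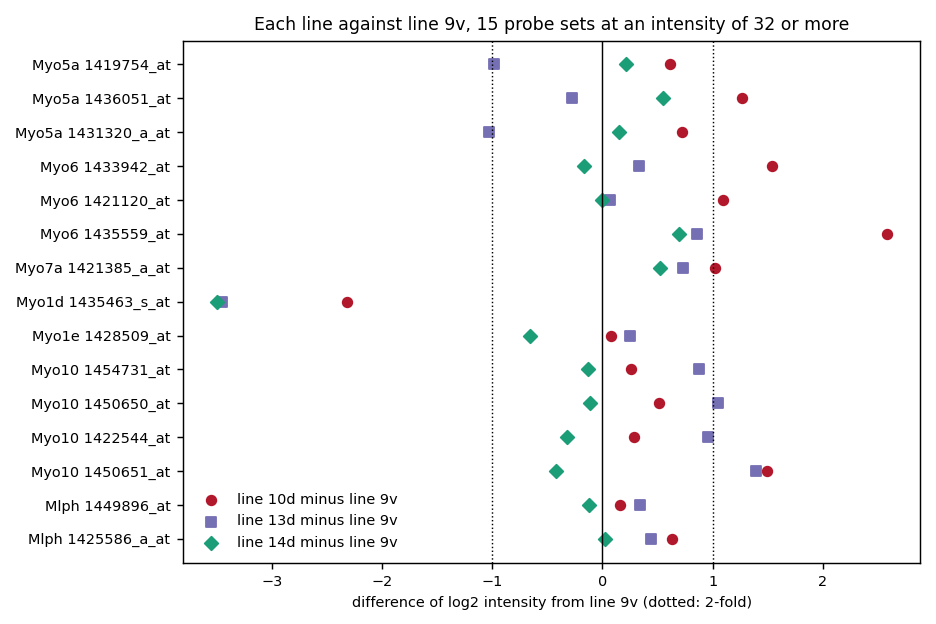
Log2 difference of lines 10d, 13d and 14d from line 9v (x) for the 15 detected probe sets (y), 1 array per line, with dotted lines at 2-fold. Line 10d stands alone on the right for the 3 Myo6 probe sets, line 13d lies left of 0 for the 3 Myo5a probe sets, and all lines lie left of -2 for Myo1d.

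Myo5b and Myo5c, the class V motors of recycling endosomes and secretory granules in epithelia, were under the detection level in every line. The 3 probe sets of Myo5b read 4 to 5 and the 2 of Myo5c read 4 to 6, each with the same value in all lines. Among class V motors, Myo5a was thus the only one detected. Of 15 further unconventional myosins with a probe set of their own, 3 were detected. Myo1c, a class I motor that ties membrane vesicles to actin, read 2321 in line 10d, 2606 in line 13d, 2008 in line 14d and 2402 in line 9v. Myo9b read 341 in line 10d, 749 in line 13d, 526 in line 14d and 487 in line 9v, and Myo18a, a myosin of the Golgi, 216 in line 10d, 331 in line 13d, 289 in line 14d and 184 in line 9v. Their ratios of line 10d to line 9v were 0.966, 0.700 and 1.17. The other 12 stayed at 24 or lower. Of the 9 detected genes of the family, 2 were at least 2-fold higher in line 10d, 1 was lower and 6 lay between, and the median log2 difference was 0.23, against 0.00 over all detected genes.

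The highest value of the 15 probe sets fell in line 10d for 9, in line 13d for 5, in line 14d for 0 and in line 9v for 1. Across all detected probe sets these shares were 28.9% for line 10d, 22.2% for line 13d, 29.1% for line 14d and 18.7% for line 9v. Line 10d led for Myo5a, Myo6, Myo7a, the dimmer Mlph probe set and the dim Myo10 probe set 1450651_at. Line 13d led for Myo1e, the 3 bright Myo10 probe sets and the brighter Mlph probe set. Myo10 1450651_at reached 32 only in lines 10d and 13d, so it was counted through lines where it was high. At a detection level of 64 the count for line 10d was 8.

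Whether these genes followed the genotype was read with each assignment of lines 13d and 14d. With the genotypes of the labels, both bcat* lines (10d and 13d) were above both WT lines (14d and 9v) for 11 of the 15 probe sets, against 19.3% of all detected probe sets. None was below in both, against 19.1%. These 11 were those of Myo6, Myo7a, Myo1e, Myo10 and Mlph, and the groups overlapped for the 3 of Myo5a and for Myo1d. The 11 are not independent, since several read the same gene, and Myo10 1450651_at reached 32 only in lines 10d and 13d. Among the further family genes detected, Myo1c, Myo9b and Myo18a overlapped with the labels' genotypes by their brightest probe sets. With those of the methods Myo1c was lower in both bcat* lines, and Myo9b and Myo18a overlapped. With the genotypes of the methods, both bcat* lines (10d and 14d) were above both WT lines (13d and 9v) for 3 probe sets, all of Myo5a, against 16.7%, and for none were they below, against 14.8%. The other 12 overlapped. Within each gene all detected probe sets fell the same way.

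limma, fitted on all 17423 detected probe sets with 2 lines per genotype, called 0 of them at an adjusted p under 0.05 with either assignment (0% each). At an unadjusted p under 0.05 there were 1284 with the labels' genotypes, of which 2 were probe sets of these genes (both of Myo10), and 670 with those of the methods, of which 1 was (Myo5a). Of the 2, Myo10 1450651_at reached 32 only in lines 10d and 13d, the bcat* lines of the labels, and entered the fit through them. With values under 32 raised to 32 its difference was 0.44 in place of 1.65. For Myo6 1433942_at the log2 level averaged 9.80 ± 0.85 in bcat* lines and 8.78 ± 0.12 in WT lines of the labels (SD, n = 2 each), a difference of 1.02 with a standard error of 0.49 and an adjusted p of 0.72 in limma. With the methods' genotypes that difference was 0.52, with an adjusted p of 0.96. It rested largely on line 10d, since it was 0.41 without that line and 1.62 without line 13d. For Myo10 1450650_at the labels gave 11.59 ± 0.38 in bcat* lines and 10.76 ± 0.08 in WT lines, a difference of 0.83 (95% confidence interval 0.06 to 1.61, limma unadjusted p = 0.041, adjusted p = 0.66). With the methods' genotypes the difference turned to -0.32. For Myo5a 1436051_at the methods gave 12.27 ± 0.51 in bcat* lines and 11.23 ± 0.20 in WT lines, a difference of 1.05 (95% confidence interval 0.14 to 1.96, limma unadjusted p = 0.033, adjusted p = 0.96), and the labels gave 0.22. For Myo1d the intervals were widest, from -4.65 to 2.38 with the labels' genotypes. The limma adjusted p of the 15 probe sets was 0.66 to 0.93 with the labels and 0.96 to 0.99 with the methods, so that none was called. With 2 lines per genotype and 17423 probe sets tested, this does not show that the genotypes were alike.

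**Figure D3:**
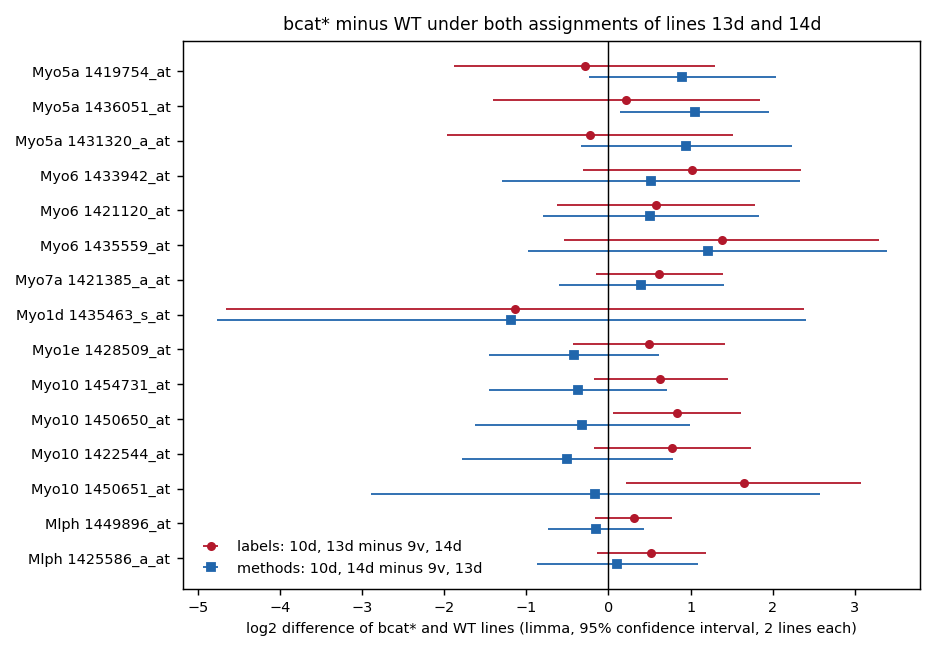
Log2 difference of bcat* and WT lines (x) with its 95% confidence interval from limma for the 15 detected probe sets (y), 2 lines per genotype, with the genotypes of the labels as red circles and those of the methods as blue squares. The estimates for Myo10 lie right of 0 with the labels and left of it with the methods, and those for Myo5a lie further right with the methods.

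The partners of these motors were read by the brightest probe set of each gene in bcat* (10d) against WT (9v) melanocytes, and counted as detected where either of these lines reached 32. Listed genes without a probe set of their own were left out of these counts. There 7.85% of all detected genes were at least 2-fold higher and 10.0% lower. Of the Rab27a and Myo5a capture complex, with its Rab GTPases and their effectors, 12 of 17 measured genes were detected and 0 passed 2-fold in either direction, with a median log2 difference of 0.08. Rab27a, the anchor of the complex, had a ratio of 0.998. The synaptotagmin-like effector Sytl4 was detected in line 14d only, at 117. Of the light chains of unconventional myosins, 4 of 7 were detected and 0 passed 2-fold. Dynll1, a light chain shared by Myo5a and dynein, read 15349 in line 10d, 26551 in line 13d, 25283 in line 14d and 24047 in line 9v, lowest in line 10d at a ratio of 0.638.

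Among the adaptors of Myo6, 10 of 13 were detected, of which 2 were higher in line 10d by 2-fold or more and 2 were lower by as much. Dab2, the clathrin adaptor that takes Myo6 to endocytic sites, read 1414 in line 10d, 492 in line 13d, 362 in line 14d and 133 in line 9v, and was 10.6-fold higher in line 10d than in line 9v. Its order of lines was that of the Myo6 probe set 1435559_at, with line 10d highest and line 9v lowest. By the brightest Myo6 probe set, 1433942_at, line 14d was lowest instead. Myo7a and Calcoco1 had the same order as Dab2. Calcoco1, a relative of the autophagy receptors that bind Myo6, read 154 in line 10d, 107 in line 13d, 97 in line 14d and 45 in line 9v, a ratio of 3.42 between lines 10d and 9v. Gipc1, which couples Myo6 to endocytic vesicles, read 484 in line 10d, 931 in line 13d, 565 in line 14d and 994 in line 9v, a ratio of 0.487. Tom1l1, a relative of the endosomal adaptor Tom1, read 80 in line 10d, 110 in line 13d, 71 in line 14d and 225 in line 9v, a ratio of 0.356. The adaptors therefore included genes on either side, and their median log2 difference was 0.08.

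Of the actin genes, the formation of branched actin and the scission of membranes had 12 of 12 measured genes detected, from 16 listed. Of these, 1 was higher and 1 lower. Arpc5l, a subunit of the Arp2/3 complex that branches actin, read 9274 in line 10d, 2964 in line 13d, 3944 in line 14d and 3738 in line 9v, a ratio of 2.48, and was high in line 10d alone. Kif13b, a kinesin, read 69 in line 10d, 216 in line 13d, 204 in line 14d and 175 in line 9v, a ratio of 0.394. The genes of filopodia and actin assembly had 12 of 14 detected, 1 higher and 3 lower. Enah, which lengthens actin filaments at the cell edge, read 95 in line 10d and 8 in lines 13d, 14d and 9v, at least 2.97-fold higher in line 10d with the others counted at 32. Its relative Vasp read 316 in line 10d, 582 in line 13d, 746 in line 14d and 776 in line 9v, a ratio of 0.407. Diaph3, a formin that nucleates straight filaments, read 148 in line 10d, 303 in line 13d, 336 in line 14d and 400 in line 9v, a ratio of 0.370. Lpp, a protein of focal adhesions that binds Vasp, read 1342 in line 10d, 3464 in line 13d, 2171 in line 14d and 2980 in line 9v, a ratio of 0.450. Line 10d was thus the lowest line for Vasp, Diaph3, Lpp and Kif13b.

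Of the conventional myosin II genes, 7 of 10 were detected in lines 10d or 9v, 1 higher and 1 lower. Myl9, a regulatory light chain of myosin II, was detected in line 13d only, at 263, with 6 in line 10d, 3 in line 14d and 6 in line 9v. Myh10, the heavy chain of non-muscle myosin IIB, read 1630 in line 10d, 2901 in line 13d, 904 in line 14d and 484 in line 9v, a ratio of 3.37. Mylk, the kinase that switches on myosin II through its light chain, read 406 in line 10d, 1317 in line 13d, 794 in line 14d and 1212 in line 9v, a ratio of 0.335. Of the Myo7a partners of the inner ear and retina, 7 were measured and 0 were detected in lines 10d or 9v. Plekhb1, one of them, was detected in line 14d only, at 66. The summed leukocyte markers were 9625 in line 14d, against 244 to 376 in the other lines. Nearly all of this was Lyz2, at 9580 in line 14d, the only leukocyte marker detected in any line. Its bearing on the values of line 14d was not tested.

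**Figure D4:**
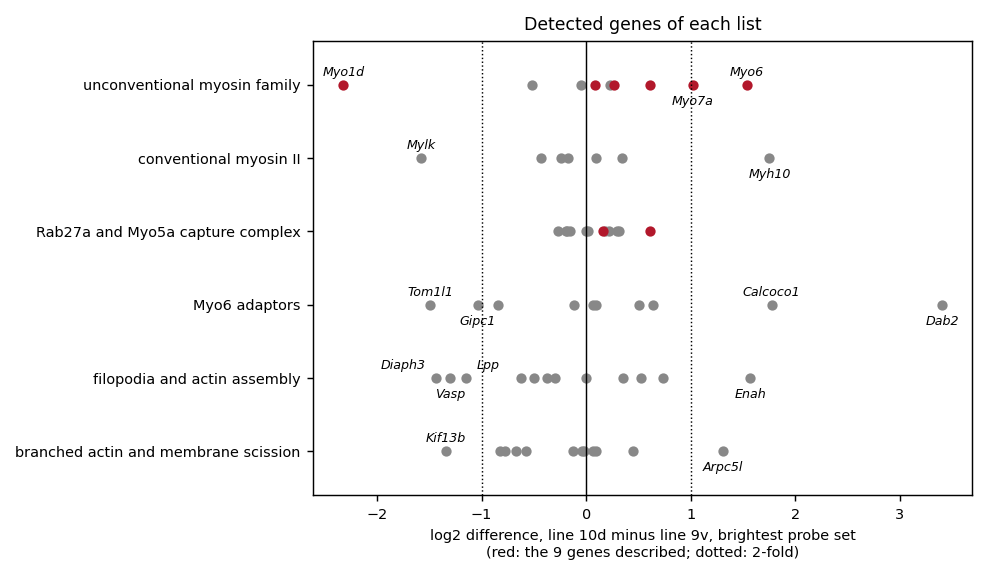
Log2 difference of bcat* (line 10d) and WT (line 9v) by the brightest probe set (x) for the detected genes of 6 lists (y), 1 array per line, values under 32 counted as 32, dotted lines at 2-fold, red for the genes described. Dab2 lies farthest right at 3.41 and Myo1d farthest left at -2.32, while all genes of the Rab27a and Myo5a capture complex lie between -0.27 and 0.61.

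The genes most like Myo5a, Myo6 and Myo7a over the 4 lines were sought among 8169 genes at 32 or more in all lines, as the smallest root mean square distance of log2 values centred on each gene's mean. For Myo5a these were Vegfa, the endothelial growth factor (distance 0.037), Ankrd24 (0.058) and Ttc17 (0.072). Vegfa read 348 in line 10d, 115 in line 13d, 264 in line 14d and 241 in line 9v, with the line order of Myo5a. For Myo6 they were Mettl1, a tRNA methyltransferase (0.048), Eif2b2, a subunit of the translation factor eIF2B (0.076), and Dnaja3, a mitochondrial chaperone (0.080). Mettl1 read 415 in line 10d, 197 in line 13d, 134 in line 14d and 148 in line 9v. For Myo7a they were Ncln (0.037), Aimp2, a scaffold of tRNA synthetases (0.045), and Eif2b4, another eIF2B subunit (0.047). Ncln read 624 in line 10d, 525 in line 13d, 464 in line 14d and 328 in line 9v. With 4 points per gene, likeness of this size describes these arrays and no more.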

How the data were processed

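The authors deposited 1 GCRMA intensity per probe set and array, as whole numbers. The submitters' processing notes name GCRMA, with further settings not given in the sources used here. No source states the scale of the intensity values, which their range and long upper tail show to be linear. GCRMA corrects background by probe sequence and normalizes between arrays, and rounding makes ratios of dim probe sets coarse. Log2 was taken here, with no further normalization.

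Gene names came from GEO's platform annotation. It gave 1 gene for 34945 of the 45037 probe sets, several for 932 and no entry for 9160. Each gene was read by its brightest probe set on average. A fold of 2 or more with the brighter line at 32 or more was called, values under 32 being raised to 32. The number of arrays limits the precision. limma 3.58.1 (lmFit, eBayes with trend, Benjamini-Hochberg) compared 2 lines per genotype. It was also run on simulated data, with less spread than many of these probe sets and larger changes than most of them. That run does not show whether differences of the size seen here could be found. The p-values of limma set the difference between genotype means against a spread between lines of the same genotype. That spread is drawn toward the one seen in other probe sets of like intensity, so it is not that of the probe set alone. Members, lists and motifs were chosen with earlier results of these data known. Named were all 9 genes, list genes past 2-fold, and the 3 nearest genes to Myo5a, Myo6 and Myo7a, and a few further genes (Rab27a, Mitf, Myrip, Sytl4, Plekhb1, Dynll1, Myl9, Myo1c, Myo9b, Myo18a and markers) were chosen after their values were seen. Promoter windows came from RefSeq (GRCm38.p6). Python 3.11.15, NumPy 2.4.6, pandas 2.3.3, Matplotlib 3.10.9 and R 4.3.3 were used.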

Additional observations from a re-analysis of the deposited data

Results flagged for a closer look

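The pair of male lines and the pair of female lines, by their labels, moved in opposite directions for Myo5a. The log2 difference of line 10d and line 9v was 0.61 by 1419754_at, 1.27 by 1436051_at and 0.72 by 1431320_a_at, whereas that of line 13d and line 14d was -1.19, -0.83 and -1.17 by the same probe sets. For Myo1d (1435463_s_at) the difference was -2.32 between lines 10d and 9v and 0.05 between lines 13d and 14d. The latter lines read 93 and 90 and were nearly equal, so no direction is read from them. Each pair is 1 line against 1 line, bcat* over WT with the genotypes of the labels, and the difference between the pairs was not tested. With the genotypes of the methods the sign of the second pair is turned, and Myo5a is then higher in the bcat* line of both pairs.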

How the results depend on the processing

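For lines 10d and 9v, the count of the 15 probe sets at least 2-fold higher was 5, and became 8 at 1.5-fold and 1 at 3-fold. Without probe sets with the suffixes _x_at, _s_at and _a_at the 1 lower probe set became 0, and so did the lower gene, both among these genes and in the whole family, since the detected Myo1d probe set was left out. The 2 higher genes, in both gene groups, became 0 at 3-fold and 1 without those suffixes, where the only Myo7a probe set was left out. The mean of all its probe sets gave Myo1d -1.16 in place of -2.32, as it takes in one that was not detected. Without a filter on dim probe sets limma called 754, of which 707 were under 32 in all lines and 0 belonged to these genes. It called 0 without each line in turn, with 829 to 1759 at an unadjusted p under 0.05; the line left alone in its genotype was then assumed to vary like the others. Signs that turned in limma, from estimates that were not called, were as follows. With the genotypes of the methods, Myo5a turned to 0.90 (1419754_at) and 0.95 (1431320_a_at), Myo1e to -0.42, Myo10 to -0.37 (1454731_at), -0.32 (1450650_at), -0.50 (1422544_at) and -0.16 (1450651_at), and Mlph to -0.15 (1449896_at). Leaving out each line in turn gave -1.09 (without 10d) to 0.51 (without 13d) for Myo5a 1419754_at and -1.10 to 0.65 for 1431320_a_at without the same lines. For Myo5a 1436051_at it gave -0.55 without 10d, -0.06 without 9v and 0.99 without 13d, and for Myo1d -2.89 without 14d to 0.61 without 9v. For Myo6 it gave 0.41 without 10d to 1.62 without 13d (1433942_at), 0.07 to 1.09 (1421120_at) and 0.52 to 2.24 (1435559_at) without the same lines. Raising values under 32 to 32 gave 0.44 in place of 1.65 for Myo10 1450651_at. The other 86 counts of the main comparisons stayed within 1.5 times, and 182 values of named probe sets and genes kept their direction and stayed uncalled or called as before, though their size could change. Median centring moved line 10d by 0.14 and the others by -0.05 on the log2 scale. The labels give no replicate numbers. With sex as a term, which pairs line 10d with 9v and 13d with 14d, limma called 0, with 1189 at an unadjusted p under 0.05. The estimates could not change, since each genotype of the labels had 1 male and 1 female line. With 1 array per line, intensities near 32 and small ratios are the least certain values.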
